A study of Homo sapiens with 12 samples.

Results

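The genes of the proteins that build the cytosolic ribosome were followed in TPC1 cells and in clones of these cells made Dicer1 (+/-). They were chosen by symbol alone: RPL or RPS with digits and at most one of the letters A, X or L, together with RPLP0, RPLP1, RPLP2 and RPSA, and without RPS27L. This gave 80 of the 58302 genes in the table, 49 of the large and 31 of the small subunit. The study asked what partial loss of Dicer1 does to thyroid tumour cells. RNA was sequenced from TPC1, an established line of papillary thyroid carcinoma cells that served as the wild type, and from D11, WB1 and TD5, which are Dicer1 (+/-) lines made from TPC1 with CRISPR-Cas9, with 3 libraries for each of the 4 lines. All lines grew in the same medium without a treatment, and each Dicer1 (+/-) line is 1 clone, so the effect of the lesion and the identity of the clone cannot be told apart. The study's methods describe its experiments in general as independently repeated, but the labels do not say whether the 3 libraries of a line came from separate cultures. The p-values measure the spread between these libraries, which may be technical if they did not.

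Ribosomal proteins fold around the ribosomal RNAs to form a small subunit, which reads the mRNA, and a large subunit, which joins the amino acids. They are needed in equal numbers in most ribosomes, their mRNAs are among the most abundant of a dividing cell, and most of these mRNAs start with an uninterrupted run of C and T letters, the 5′ TOP tract, through which the growth-controlling kinase mTORC1 sets their translation. When ribosome assembly fails, free RPL5 and RPL11 bind the ubiquitin ligase MDM2, and inherited lesions in several members, RPS19 and RPS26 among them, cause Diamond-Blackfan anaemia.

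Values are scaled reads: the authors scaled each library to a common total of 20000000 reads and rounded up, so a value is a share of the library and not a count. The reads behind 11 libraries were estimated at 12699500 to 17326000 from the whole numbers that never occur, and TPC1 replicate 1 has no such gaps. DICER1 itself had 1360, 1129 and 1101 scaled reads in TPC1, 977, 1051 and 1093 for D11, 881, 939 and 815 for WB1, and 643, 627 and 809 for TD5, so every clone library lay below every TPC1 library. Of the thyroid markers, PAX8 was between 7248 and 9879 scaled reads, while NKX2-1, TSHR and SLC5A5 were at 0 in every library. Of the 8 listed, 4 were tested, and limma called 1 higher and 1 lower in each clone. The lower one was past 1.5-fold each time, and the higher one was PAX8 in WB1 and TD5. Of 6 epithelial markers, KRT8, KRT18 and KRT7 had 10280 to 16274, 5237 to 7775 and 209 to 308, while KRT19, EPCAM and CDH1 reached at most 6. KRT8 and KRT18 were lower in each clone than in TPC1 (log2 differences of −0.26, −0.24 and −0.43, and −0.47, −0.44 and −0.23 in D11, WB1 and TD5, called by limma), and the part of this in the results was not tested. Of the markers of other cells, the leukocyte and endothelial markers PTPRC, CD3E, LYZ, PECAM1, VWF and CDH5 reached at most 7, and of the fibroblast markers COL1A1 had 48 to 97 while COL1A2 and DCN reached at most 2.

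The starts of the genes whose levels differed between lines are shown here because the tract at the start is the feature by which this class of mRNA is recognised. Each window runs from 10 bases before to 20 bases from the annotated RefSeq start (GRCh38.p14), and capitals mark the longest run of C and T letters that begins with a C within 10 bases of the start and is at least 5 letters long. No start was available for RPL8, RPL23 and RPL37 in the table used, so none is shown.
RPL22, chr1:6199576-6199605, minus strand: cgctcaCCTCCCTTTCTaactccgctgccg
RPL26, chr17:8383174-8383203, minus strand: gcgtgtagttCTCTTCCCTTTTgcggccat
RPL29, chr3:51995876-51995905, minus strand: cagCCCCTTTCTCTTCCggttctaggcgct
RPL31, chr2:101002279-101002308, plus strand: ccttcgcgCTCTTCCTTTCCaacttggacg
RPS3, chr11:75399508-75399537, plus strand: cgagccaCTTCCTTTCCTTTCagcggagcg
RPS10, chr6:34426050-34426079, minus strand: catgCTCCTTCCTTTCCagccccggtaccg
RPS24, chr10:78033853-78033882, plus strand: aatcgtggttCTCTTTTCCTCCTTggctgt
RPS25, chr11:119018324-119018353, minus strand: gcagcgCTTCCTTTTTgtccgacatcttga
RPS26, chr12:56041908-56041937, plus strand: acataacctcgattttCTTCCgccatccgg
The tract was 10 to 14 letters long in 8 of these 9 genes and 5 letters in RPS26. Genes that differed upwards (RPL22, RPL26, RPL31, RPS24, RPS25) and downwards (RPL29, RPS3, RPS10, RPS26) both carried a tract by this rule. It began at the annotated start in RPL26 and RPS24, and at base 7 in RPS26. In RPL22, RPL29, RPL31, RPS3, RPS10 and RPS25 it began 2 to 7 bases before the start, so its length includes bases outside the annotated transcript. A tract by this rule therefore need not be a 5′ TOP tract. Of the 62 tested members in the promoter table, 56 (90.3%) had such a tract, against 41.2% of the 10174 tested genes and 37.4% of all 27305 genes in that table. Searched on both strands in the 300 bases from 250 before to 50 after the start, CCGGAAG, the core of ETS factor sites, was present in 35.5% of the members and 21.9% of the tested genes, CACGTG, the E-box bound by MYC, in 6.45% and 12.7%, and TATAAA in 8.06% and 8.33%. Read on the other strand, CCGGAAG is CTTCCGG and can overlap such a tract.

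Of the 80 genes, 77 passed the filter of 1 read per 1000000 in at least 3 libraries. They were abundant in every library, with means over the 12 libraries from 1871 scaled reads for RPL39 to 27354 for RPLP0, and 24 of the 200 genes with the highest mean were members. Per kilobase of transcript, the median level was 12808 scaled reads for the members and 215 for all tested genes. RPL7A (36394 per kilobase), RPL10 (29748) and RPL12 (28669), all of the large subunit, were highest. RPL14 (1401), RPS28 (2195) and RPS26 (3240) were lowest, and the annotated transcripts used for these are long for the family (7072, 1330 and 1140 bases against a median of 685), which lowers a level per kilobase.
The 3 genes that were not tested are the paralogues of narrow tissue range. RPL10L, a testis form of RPL10, was at 0 in all 12 libraries, which allows up to 3.0 to 4.72 scaled reads by library (3 reads), and RPL3L, a form of RPL3 of heart and skeletal muscle, had 2 scaled reads in 3 libraries and 0 in the others. RPL39L, a form of RPL39, had 7, 6 and 5 scaled reads in TPC1 and 0 in all 9 clone libraries. Its TPC1 mean was 1.27-fold the highest level that 3 reads would give in a clone library. The counting error of these low TPC1 values is not included, so this is not a lower bound of the difference. Its parent RPL39 had 1694 to 1918 in TPC1 and 1709 to 2094 in the clones. These floors cover counting error only.

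Together the 80 genes took 3.70%, 4.04% and 4.18% of the TPC1 libraries, 4.01%, 3.83% and 3.83% of D11, 3.77%, 3.86% and 3.84% of WB1, and 4.09%, 4.11% and 3.63% of TD5. TPC1 averaged 3.97% ± 0.249, D11 3.89% ± 0.105, WB1 3.82% ± 0.0476 and TD5 3.94% ± 0.267 (SD, n = 3), and the libraries of each clone overlapped with those of TPC1. The large subunit held 2.24% to 2.56% and the small subunit 1.39% to 1.62% of a library.
TPC1 replicate 1 and TD5 replicate 3 were the lowest libraries of their lines. In these libraries the median log2 deviation of the members from their means over the 12 libraries was −0.08 and −0.12, and 26 and 45 of the 77 members were more than 0.1 below their means, against at most 14 in any other library. The median over all tested genes was 0.0041 and −0.012 in the same libraries. TPC1 replicate 3 deviated upwards and was the highest of the 12, with a member median of 0.09. There, 36 members were more than 0.1 above their means and 2 more than 0.1 below, and the median over all tested genes was −0.05. In RNA from whole cultures, fewer cells with an mRNA and less of it per cell cannot be told apart.

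**Figure D1:**
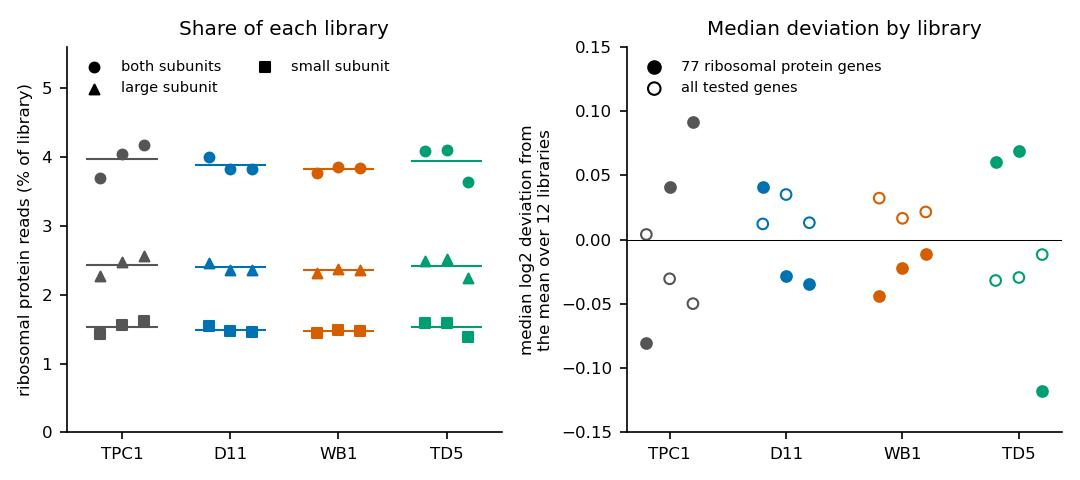
Left, percent of each library's scaled reads in the ribosomal protein genes, by subunit and together, with replicates 1 to 3 from left to right and lines at the mean of each line. Right, median log2 deviation of the 77 tested members (filled) and of all tested genes (open) from their means over the 12 libraries; TPC1 replicate 1 (−0.08) and TD5 replicate 3 (−0.12) are the lowest filled points.

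Against TPC1, 7 members were higher and 4 lower in D11 at an adjusted p under 0.05 (limma with Benjamini-Hochberg adjustment over 16027 genes), and 5 were higher and 5 lower in WB1. These are 14.3% and 13% of the 77 members, against a background of 33.3% of all tested genes called in D11 (19.9% higher, 13.4% lower) and 30.9% in WB1 (18.6% and 12.3%). Of the members, 0 were called at 1.5-fold or more in any of the 6 comparisons between lines, beside 4.84% of all tested genes in D11, 4.99% in WB1 and 2.6% in TD5 against TPC1, 2.85% in WB1 against D11, and 3.99% and 2.33% in TD5 against D11 and WB1, and the largest change was 1.20-fold, that of RPL22 in D11. The median member was at −0.04 in D11 and −0.05 in WB1 on the log2 scale, beside 0.05 and 0.06 for all tested genes. The median standard error of a member was 0.06 on this scale. Both comparisons use the same TPC1 libraries, and 5 members were called higher (11.5% of all tested genes) and 4 lower (7.76%) in both. In D11, 13 members lay above and 4 below TPC1 without overlap of the libraries (29.6% and 21.6% of all tested genes), and in WB1 15 above and 11 below (26.5% and 19.2%).

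**Figure D2:**
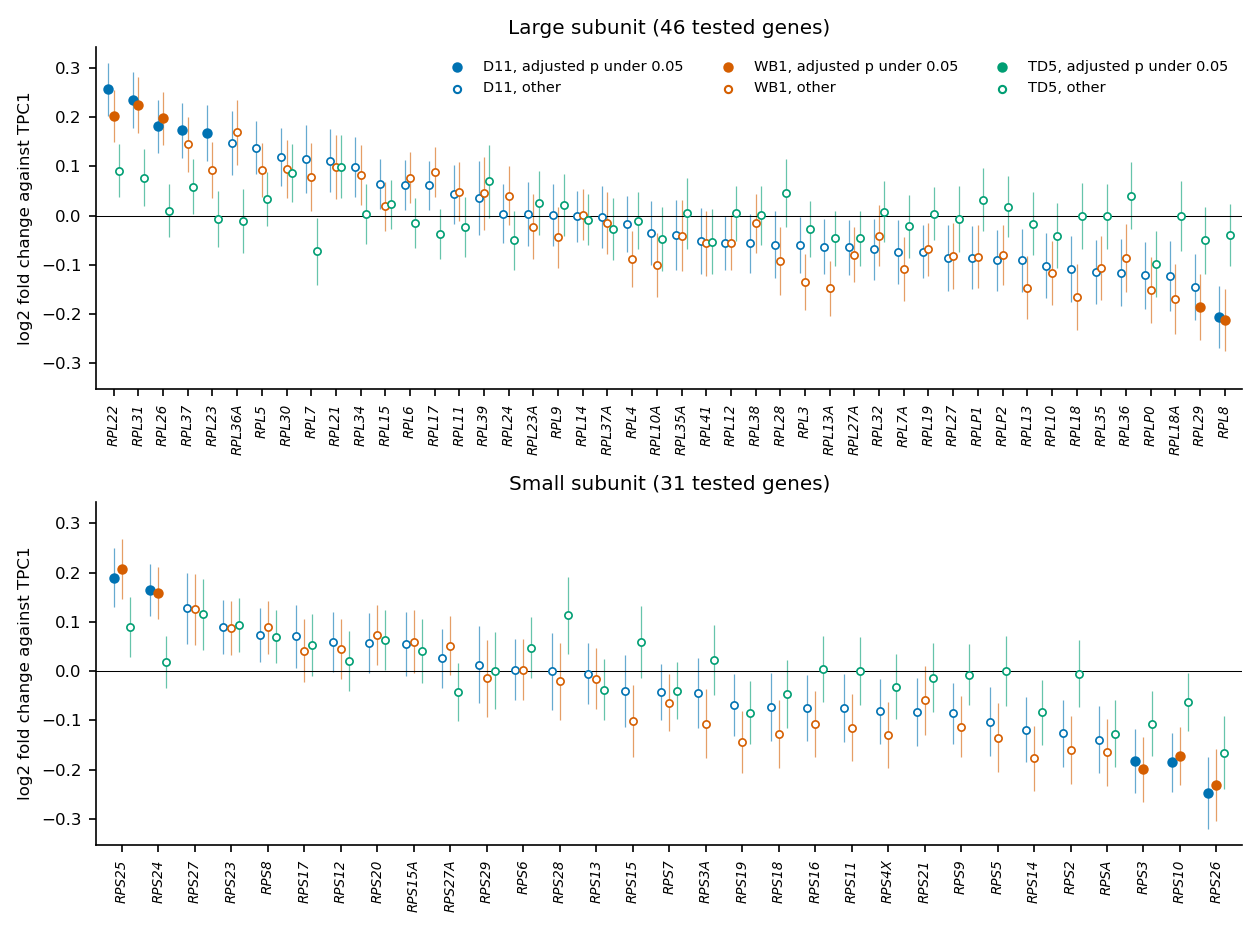
Log2 fold change of each tested member in D11, WB1 and TD5 against TPC1, with bars of 1 standard error, for the large (top) and small (bottom) subunit in the order of D11. Filled points have an adjusted p under 0.05: they stand at both ends of the order in D11 and WB1, from 0.26 (RPL22) to −0.25 (RPS26) in D11, and there are 0 in TD5.

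In the large subunit, RPL22, a surface protein known for binding other RNAs and for a role in T cell development, showed the clearest change. RPL22 (ENSG00000116251, chromosome 1, 6185020 to 6209389, minus strand of GRCh38) had 3394, 3359 and 3497 scaled reads in TPC1, 4016, 4133 and 4113 for D11, 3796, 4179 and 3839 for WB1, and 3727, 3509 and 3693 for TD5. All 9 clone libraries lay above all 3 TPC1 libraries, which held for this member alone among the 77 tested and for 5.17% of all tested genes, while 0 of the 77 had all clone libraries below TPC1 (6.51%). D11 exceeded TPC1 by 0.26 on the log2 scale (standard error 0.05, limma adjusted p = 0.0024) and WB1 by 0.20 (adjusted p = 0.01). For TD5 the difference was 0.09 (adjusted p = 0.292). The exon of a neighbouring gene on the other strand, RNF207, overlaps it, and how the counting treated strand is not stated.
RPL31 (ENSG00000071082, chromosome 2, 101002229 to 101024032, plus strand), a protein beside the peptide exit tunnel, had 5157, 5560 and 5493 scaled reads in TPC1, 6444, 6412 and 6220 for D11, 6186, 6437 and 6322 for WB1, and 6104, 5762 and 5262 for TD5. D11 and WB1 lay above TPC1 without overlap, and TD5 replicate 3 fell within the TPC1 range. It rose by 0.23 in D11 (limma adjusted p = 0.00621) and 0.22 in WB1 (adjusted p = 0.00812), and was at 0.08 in TD5 (adjusted p = 0.421). With library values adjusted for GC content, the D11 value was −0.0059 and the WB1 value 0.02 (limma adjusted p = 0.967 and 0.864).
RPL26 (ENSG00000161970, chromosome 17, 8377516 to 8383213, minus strand), which also lies near the exit tunnel, had 5815, 5948 and 6084 scaled reads in TPC1 and 6671 to 6793 in D11. It had 6672 to 6957 in WB1 and 6323, 6119 and 5559 in TD5. D11 and WB1 were above TPC1 in every library (log2 fold changes of 0.18 and 0.20, limma adjusted p = 0.017 and 0.0111), and the TD5 libraries lay on both sides of TPC1 (0.01, adjusted p = 0.928).
RPL23, a further protein that binds MDM2, rose in D11 (0.17, limma adjusted p = 0.0316) and was at 0.09 in WB1 (adjusted p = 0.219). RPL37, named after its values were seen, as were RPS24 and RPL29, rose in D11 by 0.17 (adjusted p = 0.0258) and was at 0.15 in WB1 (adjusted p = 0.0573).
In the other direction, RPL8 (ENSG00000161016, chromosome 8, 144789765 to 144792587, minus strand), a protein of the peptidyl transferase region, had 20222, 22246 and 24138 scaled reads in TPC1, 19835, 18545 and 19251 for D11, 19004, 19280 and 19063 for WB1, and 21091, 23129 and 20523 for TD5. The D11 and WB1 libraries were below every TPC1 library, and those of TD5 lay within the TPC1 range. Its log2 fold change was −0.21 in both D11 and WB1 (limma adjusted p = 0.0197 and 0.0176) and −0.04 in TD5. RPL29, a small basic protein, had 8065 to 9742 scaled reads in TPC1 and 7601 to 7919 in WB1 (−0.19, limma adjusted p = 0.0447).

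In the small subunit, RPS25 (ENSG00000118181, chromosome 11, 119015712 to 119018691, minus strand), which initiation at some viral and cellular internal ribosome entry sites requires, had 4438, 4822 and 4750 scaled reads in TPC1, 5319, 5463 and 5204 for D11, 5242, 5537 and 5403 for WB1, and 5357, 5009 and 4570 for TD5. D11 and WB1 did not overlap with TPC1, at log2 fold changes of 0.19 and 0.21 (limma adjusted p = 0.0234 and 0.0159). Adjusted for GC content these were 0.09 and 0.10 (limma adjusted p = 0.326 and 0.235). RPS24, one of the Diamond-Blackfan anaemia genes, rose by 0.16 in both (adjusted p = 0.0247 and 0.0314).
RPS26 (ENSG00000197728, chromosome 12, 56041351 to 56044697, plus strand), which sits at the mRNA exit channel, had the widest range of the tested members, its highest library being 1.37 times its lowest against a median of 1.20 times. It had 3759, 4137 and 4481 scaled reads in TPC1, 3563, 3429 and 3403 for D11, 3450, 3417 and 3649 for WB1, and 3760, 4005 and 3276 for TD5. D11 and WB1 lay below TPC1 in every library, and TD5 spanned from below the D11 range into that of TPC1. The log2 differences from TPC1 were −0.25 for D11 (limma adjusted p = 0.0175) and −0.23 for WB1 (adjusted p = 0.0254). For TD5 it was −0.17 (adjusted p = 0.157). Correction for GC content left it called, at −0.34 and −0.32 in D11 and WB1.
RPS3 (ENSG00000149273, chromosome 11, 75399515 to 75422280, plus strand), a protein of the mRNA entry channel, had 16486 to 18839 scaled reads in TPC1, 15298 to 16405 in D11 and 15432 to 15910 in WB1, which do not overlap, and fell by 0.18 and 0.20 on the log2 scale (limma adjusted p = 0.0417 and 0.0299). RPS10 (ENSG00000124614, chromosome 6, 34417454 to 34426069, minus strand), at the head of the subunit, had 9095 to 9857 in TPC1, 8336 to 8566 in D11 and 8193 to 8831 in WB1, and its log2 fold changes were −0.19 and −0.17 (adjusted p = 0.0249 and 0.0366). RPS10 shares exons with the read-through gene RPS10-NUDT3, so the division of its reads is uncertain.

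**Figure D3:**
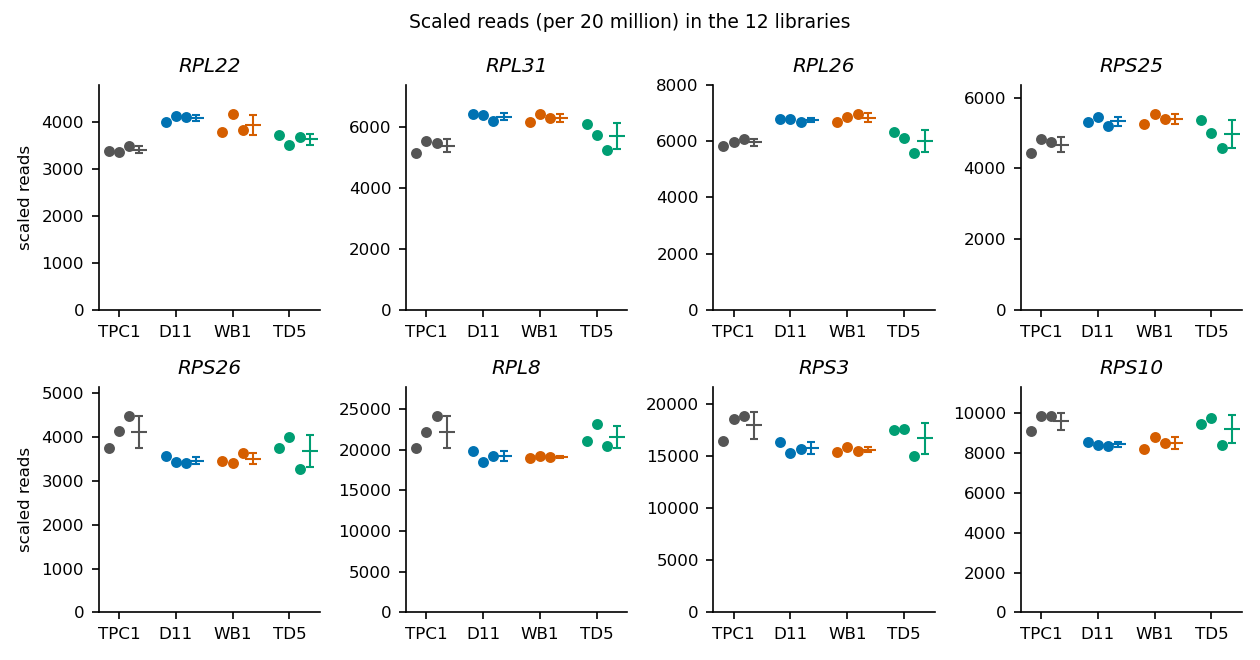
Scaled reads (per 20000000) of 8 members in each library, with the mean and SD of each line (n = 3) to the right of its points. In the top row D11 and WB1 lie above TPC1 and in the bottom row below it, while TD5 overlaps with TPC1 in all 8 but RPL22.

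Other members with known special roles were not called against TPC1. RPL5 had 12760 to 13522 scaled reads in TPC1, 14155 to 14724 in D11 and 13804 to 14298 in WB1, above TPC1 without overlap, at 0.14 in D11 (limma adjusted p = 0.0599) and 0.09 in WB1 (adjusted p = 0.203). RPL11, its partner in binding MDM2, was at 0.04 and 0.05. The stalk that recruits the elongation factors, which is RPLP0, RPLP1 and RPLP2 on a base with RPL12, had 0 of 4 genes called in any clone (33.3%, 30.9% and 11.9% of all tested genes in D11, WB1 and TD5), and their median was −0.09 for D11, −0.08 for WB1 and 0.01 for TD5. RPLP0, the highest member by mean, had 26618 to 30837 in TPC1 and 24532 to 28694 in the clones. RPS19 was at −0.07 in D11 and −0.14 in WB1 (adjusted p = 0.413 and 0.0936), and RPSA, the laminin receptor homologue, at −0.14 and −0.16 (adjusted p = 0.123 and 0.0755). RPS4X, RPS6 (the S6 kinase substrate), RPS27A (made as a fusion with ubiquitin) and RPL41 (the smallest member) lay between −0.13 and 0.05 in D11, WB1 and TD5 and were not called.
Of the 9 members on the list of Diamond-Blackfan anaemia genes used here, 1 was higher (RPS24) and 2 were lower (RPS26 and RPS10) in D11. The counts were the same in WB1, beside 19.9% higher and 13.4% lower of all tested genes in D11 and 18.6% and 12.3% in WB1. The list does not hold every member linked to this disease, so these counts describe the list alone. The large and the small subunit had medians of −0.04 and −0.04 in D11. For WB1 they were −0.04 and −0.06, and for TD5 −0.0013 and 0.00035. The 28 members that carry 60 snoRNAs in their introns had a median of −0.05 in D11, and those without one −0.04.

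The D11 and WB1 counts rested on single libraries. Without TPC1 replicate 1, 3 members were higher and 10 lower in D11 and 3 and 17 in WB1, without TPC1 replicate 2 it was 5 and 1 in D11 and 4 and 1 in WB1, and without TPC1 replicate 3 it was 7 and 0 in D11 and 5 and 0 in WB1. Without D11 replicate 1, 2 or 3 there were 3 higher and 4 lower, 2 and 0, and 4 and 0 in D11, and without WB1 replicate 1, 2 or 3 there were 5 and 0, 2 and 2, and 4 and 2 in WB1. Without TD5 replicate 3, which enters only through the spread, WB1 had 7 higher and 11 lower. RPL22 in D11 was called under each of the 26 alternatives, and RPL31 in D11 and WB1 under 25. The shares of all tested genes called with a library left out are not reported here. Whether these moves are particular to the members was not tested.

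TD5 against TPC1 had 0 members called by limma, with 1 (RPS26) at an unadjusted p under 0.05, beside 11.9% of all tested genes called (5.32% higher, 6.57% lower). RPL22 lay above TPC1 without overlap and 0 members below it (12.1% and 15% of all tested genes). The median member was at −0.00089, the median size of a change was 0.04 against 0.12 for all tested genes, and 38 of 77 members were positive. Without TD5 replicate 3 the median was 0.05, and without TD5 replicate 2 it was −0.04 with 1 member called lower (RPS26, −0.23, limma adjusted p = 0.0493).
Of the differences between clones, WB1 against D11 had 0 members called by limma and 0 at an unadjusted p under 0.05, against 8.07% of all tested genes (4.65% higher, 3.42% lower). In these, 0 members lay above and 8 below without overlap (14.4% and 13%), and the log2 differences lay between −0.08 and 0.04. TD5 against D11 had 3 members lower, which were RPL23 (−0.17), RPL26 (−0.17) and RPL22 (−0.17, limma adjusted p = 0.0343, 0.0295 and 0.0343), and 0 higher, against 23.2% of all tested genes called (14.8% lower, 8.43% higher). Without overlap, 5 members lay above and 10 below D11 (15.4% and 22.9%). A block on the replicate number over the 12 libraries left 0, and with the block and only TD5 and D11 in the fit 7 were lower and 2 higher. TD5 against WB1 had RPL26 alone lower (−0.19, limma adjusted p = 0.0287), against 13.6% of all tested genes (9.12% lower, 4.52% higher), and with the block it was not called. Without overlap, 12 members lay above and 9 below WB1 (10.1% and 19.1%).
These counts also moved with single libraries. TD5 against D11 had 1 higher and 5 lower without TPC1 replicate 1 or TPC1 replicate 3, 0 without D11 replicate 1, 2 or 3, 1 lower without TD5 replicate 2, and 2 higher and 1 lower without TD5 replicate 3. TD5 against WB1 had 6 higher and 0 lower without TD5 replicate 3, 2 lower without TD5 replicate 1, 0 without TD5 replicate 2 or any WB1 replicate, and 1 higher and 1 lower without TPC1 replicate 1 or TPC1 replicate 3.

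The members called higher and lower differed in the base composition of their transcripts. The 7 members higher in D11 had 39.7% (RPL31) to 49.3% (RPL26) GC, all under the median of 49.6% for the 77 members, and of those lower in D11 or WB1 only RPS26 (47.0%) was under it, while RPL8 had 61.8%. Over the 39 members at or under the median GC, the median log2 fold change was 0.06 in D11 and 0.05 in WB1, with 28 and 27 of them positive, and over the 38 above it −0.08 and −0.11, with 3 and 2 positive. In TD5 these medians were 0.010 and −0.0032.
All tested genes had the same ordering, with medians of 0.17 in D11 and 0.16 in WB1 at or under this GC content and −0.08 and −0.06 above it. By library, the members above the median GC deviated most in TPC1 replicate 3 (median 0.16, 38 of 38 above their means) and TD5 replicate 2 (0.11, 38 of 38), and in TD5 replicate 3 the members at or under it were lowest (−0.13, 0 of 39 above their means). With each library corrected for GC content, 1 member was higher (RPL22, 0.14, limma adjusted p = 0.048) and 3 were lower (RPS26, RPL27A and RPS3) in D11. In WB1, 1 was higher (RPL26, 0.14) and 8 were lower (RPS26, RPS3A, RPS4X, RPS3, RPL27A, RPSA, RPL9 and RPS10), of which RPL27A, RPS3A and RPL9 were named after their values were seen. Of the 11 calls in D11, those of RPL22, RPS26 and RPS3 remained, and of the 10 in WB1, those of RPL26, RPS26, RPS3 and RPS10. The calls of RPL31, RPL37, RPS24, RPS25, RPL23, RPL8 and RPL29 were lost wherever they had been made. RPL22 lost its WB1 call (0.09, limma adjusted p = 0.209), and RPL26 and RPS10 their D11 calls (0.14 and −0.15, adjusted p = 0.0514 and 0.0552). RPL8 was at −0.09 and −0.10 in D11 and WB1, RPS24 at 0.02 in both, RPL23 at 0.05 in D11 and RPL29 at −0.11 in WB1.

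**Figure D4:**
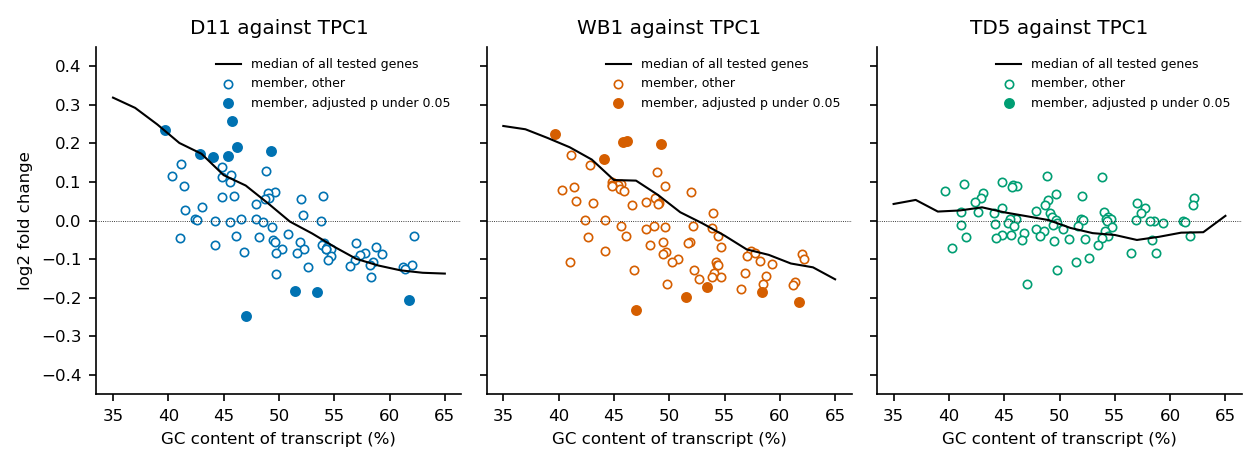
Log2 fold change of the 77 tested members against the GC content of their transcripts in each clone, with the median of all tested genes in bins of 2% GC as a line. Members called at an adjusted p under 0.05 (filled) stand on the left above 0 and mostly on the right below it in D11 and WB1, and RPS26 lies lowest in both at 47.0% GC.

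**Figure D5:**
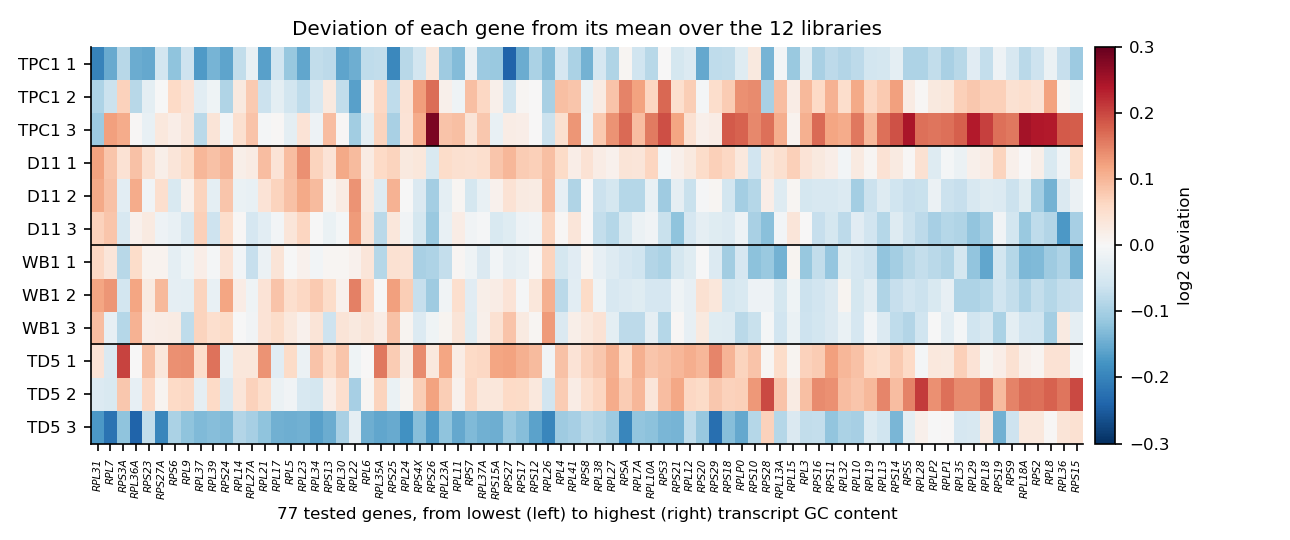
Log2 deviation of each tested member from its mean over the 12 libraries, with libraries in rows and genes in columns from 39.7% (RPL31) to 62.2% GC. The rows of TPC1 replicate 1 and TD5 replicate 3 are mostly blue, and the row of TPC1 replicate 3 is red at high GC content.

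Genes outside the rule that belong to the same machinery were taken from lists. FAU, which encodes a further ribosomal protein as a fusion to a ubiquitin-like protein, had 3977 to 4451 scaled reads in TPC1. It was lower in D11 (−0.18, limma adjusted p = 0.0252) and in WB1 (−0.18, adjusted p = 0.0292).
Of the 5 paralogues outside the rule, 2 were higher in D11, 0 were called in WB1 and 2 were lower in TD5. Of all tested genes, 19.9% were higher in D11, 30.9% were called in WB1 and 6.57% were lower in TD5. RPL22L1, the paralogue of RPL22 whose level RPL22 is known to restrain, had 1228, 1093 and 1239 scaled reads in TPC1, 1649, 1753 and 1691 for D11, 1247, 1439 and 1224 for WB1, and 1049, 984 and 990 for TD5. It was higher in D11 (0.51, limma adjusted p = 0.000122) and lower in TD5 (−0.23, adjusted p = 0.0486), and TD5 against D11 was at −0.74 (adjusted p = 2.54e-06). Per 100 reads of RPL22 there were 32.5 to 36.2 of RPL22L1 in TPC1, 41.1 to 42.4 in D11, 31.9 to 34.4 in WB1 and 26.8 to 28.1 in TD5, so D11 lay above and TD5 below all libraries of the other lines. RPS27L, a paralogue of RPS27, had 926 to 1117 scaled reads in TPC1, 1409 to 1638 in D11, 1039 to 1322 in WB1 and 805 to 818 in TD5 (0.54 in D11 and −0.32 in TD5, limma adjusted p = 0.000443 and 0.0269). RPL7L1, RPL26L1 and RPL36AL were not called in any of the 6 comparisons.
Of 58 genes of ribosome biogenesis (RNA polymerase I and nucleolar assembly factors), D11 had 2 higher and 15 lower, WB1 had 0 and 22, and TD5 had 0 and 6, beside 19.9% higher and 13.4% lower, 18.6% and 12.3%, and 5.32% and 6.57% of all tested genes. RRP12, an export factor of the subunits, was the lowest in WB1 and TD5 (−0.71 and −0.69, limma adjusted p = 5.27e-05 and 0.000145), and MRTO4, an assembly factor of the stalk base, was the lowest in D11 (−1.11, adjusted p = 4.03e-08). Of 19 other mRNAs of the translation machinery, 3 were higher and 4 lower in D11, with TPT1 the highest (0.21) and EEF2 the lowest (−0.24), 1 and 6 in WB1, and 0 in TD5. Of 6 chaperones of single ribosomal proteins, 1 was higher and 2 lower in each clone, and HEATR3, which accompanies RPL5, was the higher one in each (0.17, 0.23 and 0.27). Of 12 regulators (mTORC1, LARP1, MYC and others), D11 had 1 higher and 4 lower, WB1 had 0 and 3, and TD5 had 0 and 1. The shares of all tested genes given for the biogenesis genes apply to these lists as well.
MDM2, which RPL5 and RPL11 bind, its relative MDM4 and the cell cycle inhibitor CDKN1A were higher in D11 (0.71, 0.65 and 0.35, limma adjusted p = 0.000367, 0.000356 and 0.0185). MDM4 was higher in WB1 (0.52), and CDKN1A was lower in WB1 and TD5 (−0.47 and −0.71). Of 77 tested mitochondrial ribosomal protein genes, D11 had 5 higher and 15 lower, WB1 had 9 and 9, and TD5 had 0 and 2.

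Ribosomal protein mRNAs have many processed copies in the genome, and the table holds 951 rows named as such pseudogenes. Of these, 432 were at 0 in every library and 45 were tested. All of them together held 0.773 to 0.927 scaled reads per 100 of the members in a library. RPL9P9, a processed copy of RPL9, had 1339 to 1648 scaled reads beside 6882 to 8253 of RPL9, and reads may be shared between these rows. Of the 45, D11 had 3 higher and 0 lower, WB1 had 3 and 2, and TD5 had 1 and 2. RPSAP52 was the highest called in each clone, with 47, 82 and 44 scaled reads in TPC1, 103 to 118 in D11, 110 to 137 in WB1 and 83 to 101 in TD5 (0.77, 0.87 and 0.53, limma adjusted p = 0.00173, 0.000661 and 0.032). RPL13AP20, the lowest called in WB1 and TD5, had 353, 294 and 293 in TPC1, 118, 177 and 108 in WB1 (−1.13, limma adjusted p = 0.000319) and 169, 228 and 116 in TD5 (−0.84, adjusted p = 0.00606). In the annotation, 33 members share exon positions with another gene on their strand and 25 with one on the opposite strand.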

How the data were processed

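Stranded mRNA libraries were sequenced as paired ends, and the authors aligned the reads to GRCh38 with STAR 2.5.3a and counted them per gene with HTSeq 0.9.1 (versions from the submitters' processing notes). The deposited values are a score: gene counts scaled by the authors to 20000000 reads per library and rounded up. The study tested with edgeR's quasi-likelihood method, but scaled values are not counts, so limma 3.58.1 (R 4.3.3) with a mean-variance trend was used here on log2(value per 1000000 + 1). A fold change on this scale understates that of low genes. A gene was kept when 3 or more libraries had 1 or more per 1000000 (16027 genes), with 1 mean per line over all 12 libraries, and p-values were adjusted by Benjamini-Hochberg in each of the 6 comparisons. The fit was also run on simulated data, drawn without a GC trend and without a shift of single libraries. It therefore does not bear on how these affect the calls.

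Members and lists were chosen with earlier results of these data known. Named members are the 3 highest and 3 lowest called in each comparison, the 3 highest and 3 lowest per kilobase, and a list of members with special roles. Other genes are examples, the highest and lowest called of their list. Gene positions, transcript lengths and GC content are from GENCODE v44 on GRCh38, and start sequences from RefSeq. How the counting treated strand is not given in the sources used here. Depth was estimated from whole numbers that never occur in a library, and a floor of 3 reads, which covers counting error only, is 3.0 to 4.72 scaled reads.

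The labels number the libraries 1 to 3 in every line without saying what a number shares. Deviations of libraries from their line means, over all tested genes, were correlated between lines. Same-numbered libraries correlated above 0.1 in every pair only between TD5 and D11 (0.107, 0.172 and 0.348). Libraries of unlike number also correlated, up to 0.316 for WB1 replicate 3 with D11 replicate 1. The main fit used no pairing in any comparison, and the replicate block was an alternative only. Alternatives were other filters, pseudocounts and scalings, no trend, corrections for GC content and transcript length, the replicate block, only the lines compared, and leaving out each library in turn. Some genes of these lists are not reported here.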

Additional observations from a re-analysis of the deposited data

Results flagged for a closer look

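In the difference between the changes of TD5 and D11 from TPC1, tested as TD5 against D11 with limma, RPL22 differed by −0.17 on the log2 scale (adjusted p = 0.0343), and all 3 TD5 libraries lay below all 3 D11 libraries. RPL23 differed by −0.17 in the same comparison (adjusted p = 0.0343), with TD5 at 6462 to 7049 and D11 at 7467 to 7850 scaled reads. RPL26 differed by −0.17 between TD5 and D11 (limma adjusted p = 0.0295) and by −0.19 between TD5 and WB1 (adjusted p = 0.0287), again without overlap of the libraries. With the GC correction these were −0.07 for RPL22, −0.07 for RPL23 and −0.12 for RPL26 in TD5 against D11, and −0.13 for RPL26 in TD5 against WB1 (limma adjusted p = 0.379, 0.472, 0.0954 and 0.108). Of 26 alternatives, 14, 13, 13 and 11 kept the respective call.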

How the results depend on the processing

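Counts of called members moved with the processing. The shares of all tested genes called in the same alternatives are not reported here, so the moves are not a result about the members alone. For D11 against TPC1, 11 members were called, and 5 without a filter, 6 with median-of-ratios scaling, 3 without the trend, 4 with the GC correction and 7 with the length correction. For WB1 against TPC1, 10 were called, and 5, 15, 4, 9 and 16 in the same order. For TD5 against TPC1, 0 were called, and 1 without a filter. For TD5 against D11, 3 were called, and 0 without a filter, 1 with median-of-ratios scaling, 0 without the trend and 0 with the GC correction. For TD5 against WB1, 1 was called, and 0 without a filter, with median-of-ratios scaling, without the trend and with only these lines. Under the GC correction RPL31 and RPL37 in D11 turned to −0.0059 and −0.00022 (limma adjusted p = 0.967 and 0.999). Without mitochondrial genes in the total, the share of the members in WB1 was 3.90%. The cause of these moves was not tested.

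With the replicate block and only the lines compared, 7 members were called in D11 and 9 in TD5 against D11, and 0 in TD5 against WB1. With the block over 12 libraries, 0 were called in TD5 against D11 and 0 in TD5 against WB1, and the block with the length correction gave 5 in D11, 0 in TD5 against D11 and 0 in TD5 against WB1. What a replicate number shares is not stated for any line, so the block may not describe a true pairing.

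Leaving out libraries gave 2 to 26 called in D11, 4 to 32 in WB1, 0 to 1 in TD5, 0 to 9 in TD5 against D11 and 0 to 17 in TD5 against WB1, and a median of −0.025 to 0.095 in TD5 against D11. The upper ends, except in TD5, leave out TPC1 replicate 1 and TD5 replicate 3 together, chosen after seeing the data. Without both, 21 of the 26 in D11 and 28 of the 32 in WB1 were lower.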
